A study of Mus musculus with 16 samples.

Results

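Gene expression in the ventricles of wild-type (WT) mice aged 15 mo was set against that of WT mice aged 3 mo, 4 mice in each group and 1 array for each mouse. These are 8 of the 16 arrays of the series. The remaining 8 hold BACHD mice, a model of Huntington's disease that carries the human mutant huntingtin gene on an artificial chromosome, at the same ages. All mice were on the C57BL6/J background and the WT mice were littermates of BACHD mice, so the WT group here served as the control in the study of that disease. They received no treatment that the labels or methods name for these samples. The sample labels call the tissue heart and the groups old and young. The ages in months and the use of the ventricles come from the methods, which do not give the sex of these mice.

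The mammalian ventricle is built mainly of cardiomyocytes, which do not divide readily in the adult, with fibroblasts, endothelial cells, pericytes, resident macrophages and nerve fibers between them. Ageing of the heart is known for a thicker wall, slower relaxation, changes of the extracellular matrix, a low-grade rise of immune signals, and shifts in fuel use, calcium cycling and electrical conduction. The comparison asked which transcripts differed between the aged and the young WT ventricle.

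The bead arrays measured 25697 probes, of which 23978 carry a gene symbol, each with an intensity and a p-value for its detection above background. The median signal was 133 to 157 on the aged WT arrays and 145 to 152 on the young WT arrays, and 9978 to 10563 probes were detected on the aged and 9780 to 10755 on the young WT arrays, at a detection p-value below 0.01. Levels below are normalized log2 signals, and every difference is aged minus young WT on the log2 scale. A probe was called at P below 0.005 without adjustment in limma, the threshold of the study's methods, and the p-value adjusted by Benjamini-Hochberg over all probes is given as the adjusted p. The number of arrays limits the precision, and a probe near background gives only a bound. In ventricle tissue, fewer cells of a type and less RNA per cell cannot be told apart.

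Before the results, the arrays were checked for the tissue they hold. The ventricular cardiomyocyte markers, 11 measured genes such as Myh6 and Tnni3, had a mean level of 13.4 to 13.5 on every WT array. The Y-linked gene Eif2s3y read 8.67 to 9.38 on all 8 arrays. Transcripts best known from other tissues differed between single arrays, and whether such tissue was present was not tested. Liver-type plasma proteins had mean levels of 5.33, 7.79, 9.20 and 7.48 on aged WT arrays 1 to 4, against 9.81, 7.54, 5.20 and 8.99 on young WT arrays 1 to 4. The major urinary protein Mup2 followed them, at 4.70, 9.03, 10.17 and 7.86 on the aged WT arrays and 11.92, 9.33, 4.65 and 11.27 on the young WT arrays, although Alb read 4.51 ± 0.11 in aged and 4.54 ± 0.14 in young WT (SD, n = 4 each), at background. The liver-type levels spread widely inside both groups.

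The atrial markers had mean levels of 6.72, 7.49, 6.83 and 8.33 on the aged WT arrays and 6.61 to 6.93 on the young WT arrays, so aged WT 2 and 4 stood above all others. In this list Myl7 differed by 1.60, Myl4 by 1.54 and Sln by 1.72, while Bmp10 read 4.71 ± 0.16 in aged and 4.69 ± 0.12 in young WT (SD, n = 4 each). Nppa, also in this list, went the other way at -0.89, and the other 8 members were above 0. The skeletal muscle markers had mean levels of 6.33, 6.10, 6.29 and 6.29 on the aged WT arrays, against 7.49, 6.90, 6.31 and 6.999 on the young WT arrays, and 3 young arrays were above all aged ones. No member of these 3 lists was called in the fit to all arrays, out of 12, 9 and 14 measured. Without young WT 3, 4 skeletal muscle markers and 1 atrial marker were called lower, and without young WT 1 or aged WT 1, 1 atrial marker was called higher. In a principal component analysis of the 8 arrays, the first component (35.3% of the variance) was highest on the arrays of lowest liver-type level (aged WT 1 and young WT 3) and lowest on those of highest (aged WT 3, young WT 1 and 4), and the second (23.3%) separated aged WT, at 4.33 to 16.6, from young WT, at -18.0 to -2.72. The part of these transcripts in each result below was not tested beyond leaving out the arrays concerned or adding the list level to the fit.

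**Figure D1:**
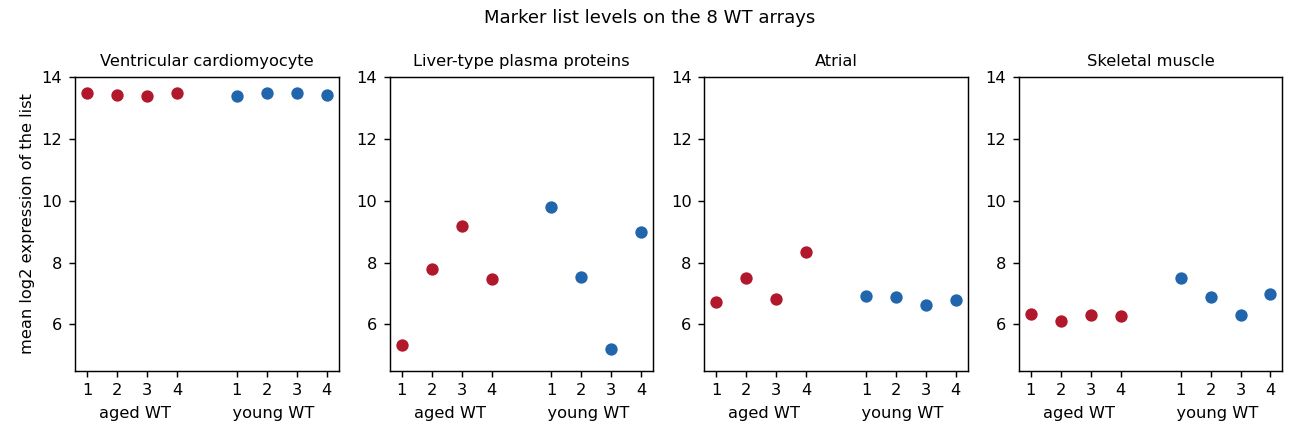
Mean log2 expression of 4 marker lists on each WT array, aged WT (red, arrays 1 to 4) left of young WT (blue, arrays 1 to 4), with 1 point for each mouse. Cardiomyocyte markers sit at 13.4 to 13.5 everywhere, liver-type transcripts range from 5.33 to 9.20 in aged and 5.20 to 9.81 in young WT, atrial markers are highest on aged WT 2 and 4, and skeletal muscle markers are highest on young WT 1, 2 and 4.

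Across all probes, 711 were called, 428 higher and 283 lower in aged WT (2.77% of all probes, 1.67% higher and 1.1% lower). They stand for 358 genes that rose and 245 genes that fell. Of all genes represented by 1 probe each, 1.92% were called higher and 1.18% lower, the shares to set beside the list counts below. At an adjusted p below 0.05, 183 probes remained past the threshold (0.712%), 132 higher and 51 lower. The median size of a called difference was 0.47, and the difference passed 1 in 39 probes that rose and in 9 that fell. In 636 of the 711, the 4 aged and the 4 young values did not overlap. Over all probes, 3.79% had all aged values above all young ones and 3.03% had all below.

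The balance of the directions depended on the scaling. Scaling each array to its median instead gave 484 calls, of which 231 (47.7%) were higher, against 60.2% after quantile normalization. With each of the 8 WT arrays left out in turn, 493 to 684 probes were called and 315 of the 711 stayed called in every such fit, 204 higher and 111 lower. The count at an adjusted p below 0.05 was 83 without young WT 4 and 96 without aged WT 2. Without the 3 arrays of the highest liver-type level (aged WT 3, young WT 1 and 4, the liver-high arrays below) 375 probes were called, and without aged WT 2 and 4, which had the highest atrial level, 520 were. The first of these fits kept only aged WT 1, 2 and 4 and young WT 2 and 3, and the second only aged WT 1 and 3 among the aged. With fewer arrays a call can be lost at an unchanged difference, so a lost call alone does not show dependence on the arrays left out. A core of 151 probes, 108 higher and 43 lower, held with each array left out and without either set of arrays. A gene is said below to have held when its call stayed with each WT array left out.

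**Figure D2:**
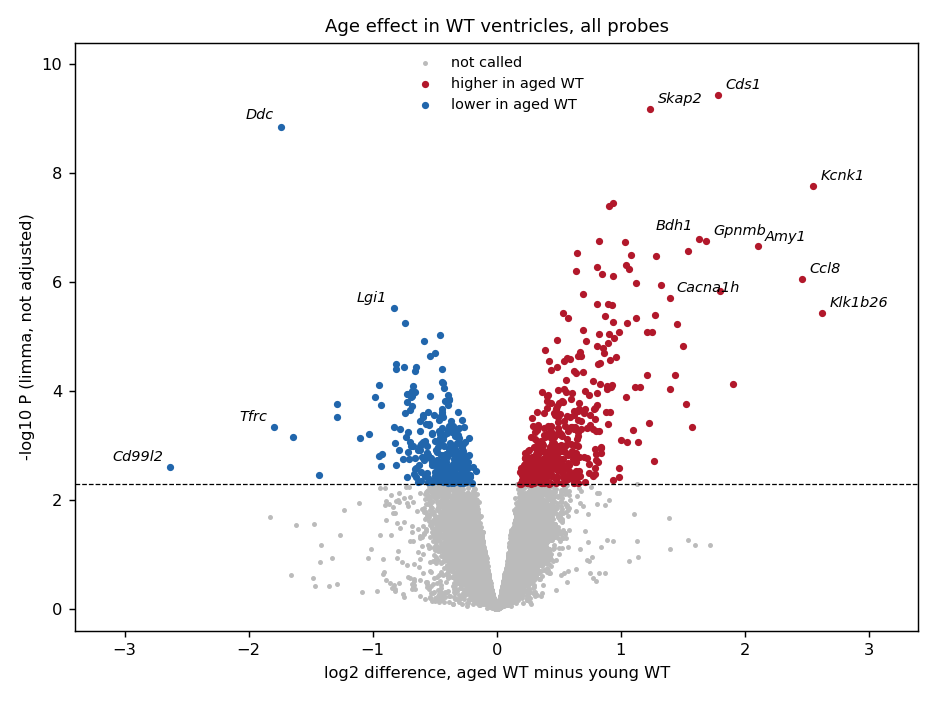
Each point is 1 of the 25697 probes, with the aged minus young WT difference (log2) on the horizontal axis and -log10 of limma's unadjusted P on the vertical axis. The dashed line marks the call threshold, and probes above it are red where higher in aged WT (428) and blue where lower (283). Cds1, Skap2, Kcnk1 and Ddc lie farthest from the line.

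The smallest P among the increases with age belonged to Skap2 and Cds1. Skap2, an adaptor protein of Src-family kinases in immune cells, read 9.76, 9.85, 9.85 and 9.94 in aged WT, against 8.42, 8.61, 8.78 and 8.64 in young WT. Cds1, which makes the CDP-diacylglycerol used for phosphatidylinositol and cardiolipin, read 8.72, 8.74, 8.86 and 8.94 in aged WT, against 7.15, 7.16, 7.001 and 6.83 in young WT. The spread inside each group was small beside the distance between the groups, and neither gene's values overlapped. Skap2 was higher by 1.24 (SE 0.09), or 2.36-fold, and Cds1 by 1.78 (SE 0.13), or 3.44-fold, both with limma at an adjusted p of 8.35e-06, the smallest in the comparison. The exact two-sided permutation test over the 35 splits of 8 arrays gave p = 0.0286 for both, the smallest p it allows and the value for every named gene whose groups do not overlap.

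Rab4a, a small GTPase that returns endosomes to the cell surface, was higher by 0.91 (SE 0.09) and Sncg, which encodes gamma-synuclein, by 0.94 (SE 0.09), with limma's adjusted p at 0.000174 for both. A further probe of Sncg, called as well, was detected on all 4 aged and on no young array. Prkcq, the theta isoform of protein kinase C known from T cells and skeletal muscle, was higher by 1.54 (SE 0.18). Tspan17, a tetraspanin, was higher by 0.64 on its brightest probe and by 0.83 on a further one, while its dimmest probe read 0.24 and was not called. Each of these genes held, and their groups did not overlap.

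Several transcripts were measured on every aged array and on none or few of the young ones. Where no array of a group detected a probe, the fold is given as a lower bound against the lowest signal detected on those arrays, or the probe's own signal if that is higher. Kcnk1, a background potassium channel, read 6.96, 7.10, 7.38 and 7.63 in aged WT, against 4.71, 4.88, 4.67 and 4.59 in young WT, where it was detected on no array. It was at least 3.07-fold higher (adjusted p = 0.000109, limma). Klk1b26, of the tissue kallikrein proteases, read 6.59, 6.77, 7.48 and 8.37 in aged WT, against 4.64, 4.98, 4.58 and 4.51 in young WT, and was at least 3.14-fold higher (adjusted p = 0.00286, limma). The mouse kallikreins are a family of close copies, and which of them this probe reads was not tested.

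Fstl4, a follistatin-like protein, was at least 1.33-fold higher and Ric3, a chaperone of acetylcholine receptors, at least 1.46-fold higher, both detected on all 4 aged and on no young array. Amy1, an amylase with close copies in the genome, read 7.80, 7.75, 7.69 and 7.43 in aged WT, against 5.90, 6.15, 4.98 and 5.22 in young WT, and was higher by 2.10 (SE 0.24, adjusted p = 0.00051 with limma). It was detected on 2 of the 4 young arrays. All 5 of these transcripts held.

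The clearest decrease was in Ddc, the aromatic amino acid decarboxylase that makes dopamine and serotonin. It read 5.16, 4.77, 4.67 and 4.76 in aged WT, detected on no array, against 6.87, 6.67, 6.41 and 6.37 in young WT, detected on all 4. It was at least 1.95-fold lower (adjusted p = 1.19e-05, limma). Lgi1, a secreted leucine-rich repeat protein known from synapses, read 5.67, 5.68, 5.80 and 5.65 in aged WT, against 6.52, 6.45, 6.51 and 6.64 in young WT, and fell by 0.83 (SE 0.11). Neither gene's groups overlapped, and both held.

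Tfrc, the transferrin receptor through which cells take up iron, was lower on both of its probes. On its brighter probe it read 9.82, 8.998, 8.13 and 9.71 in aged WT, against 10.64, 10.71, 11.26 and 10.63 in young WT. The 2 probes differed by -1.65 (SE 0.39) and -1.79 (SE 0.40), with limma's adjusted p at 0.0689 and 0.0565, and both held. Without the 3 arrays of the highest liver-type level the brighter probe was at -1.48 and no longer called.

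Cd99l2, a membrane protein of leukocyte passage, was split within the aged group. Its dimmer probe read 8.62, 5.54, 5.36 and 5.67 in aged WT, against 8.94, 8.93, 9.05 and 8.80 in young WT, so aged WT 1 lay with the young arrays. The difference was -2.63 (SE 0.72, adjusted p = 0.126 with limma), and -3.41 without aged WT 1. The call was lost with any array other than aged WT 1 left out, at -2.68 to -2.32. The brighter probe of the same gene differed by -0.04 and was not called.

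Other transcripts that fell and held include several of mitochondrial, amino acid and chromatin proteins. Slc25a33, which carries pyrimidine nucleotides into mitochondria, read 8.51, 9.14, 8.84 and 9.03 in aged WT, against 9.61, 9.998, 9.35 and 9.81 in young WT, and fell by 0.81 (SE 0.14). Ddo, which degrades D-aspartate, fell by 0.59 on 1 probe, while its other probes read -0.24 and -0.05 and were not called. Ctsc, a lysosomal protease that activates serine proteases of immune cells, fell by 0.44, 0.50 and 0.52 on its 3 probes. Mzt1, a subunit of the microtubule nucleation complex, and Prorsd1 each fell by 0.44, and Gm826 fell by 0.74.

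The replication-dependent histone genes H3c4 and H3c14 were lower as well. H3c4 fell by 0.66 (SE 0.12, adjusted p = 0.0135 with limma). A probe of H3c14 was detected on no aged array and was at least 1.5-fold lower, while another probe of that gene differed by -0.10 and was not called. Histone H3 genes are close copies, so the copy that each probe reads is uncertain. None of the 50 measured genes of the cell cycle and DNA replication list was called, and 32 were below 0, against 49.8% of all genes.

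**Figure D3:**
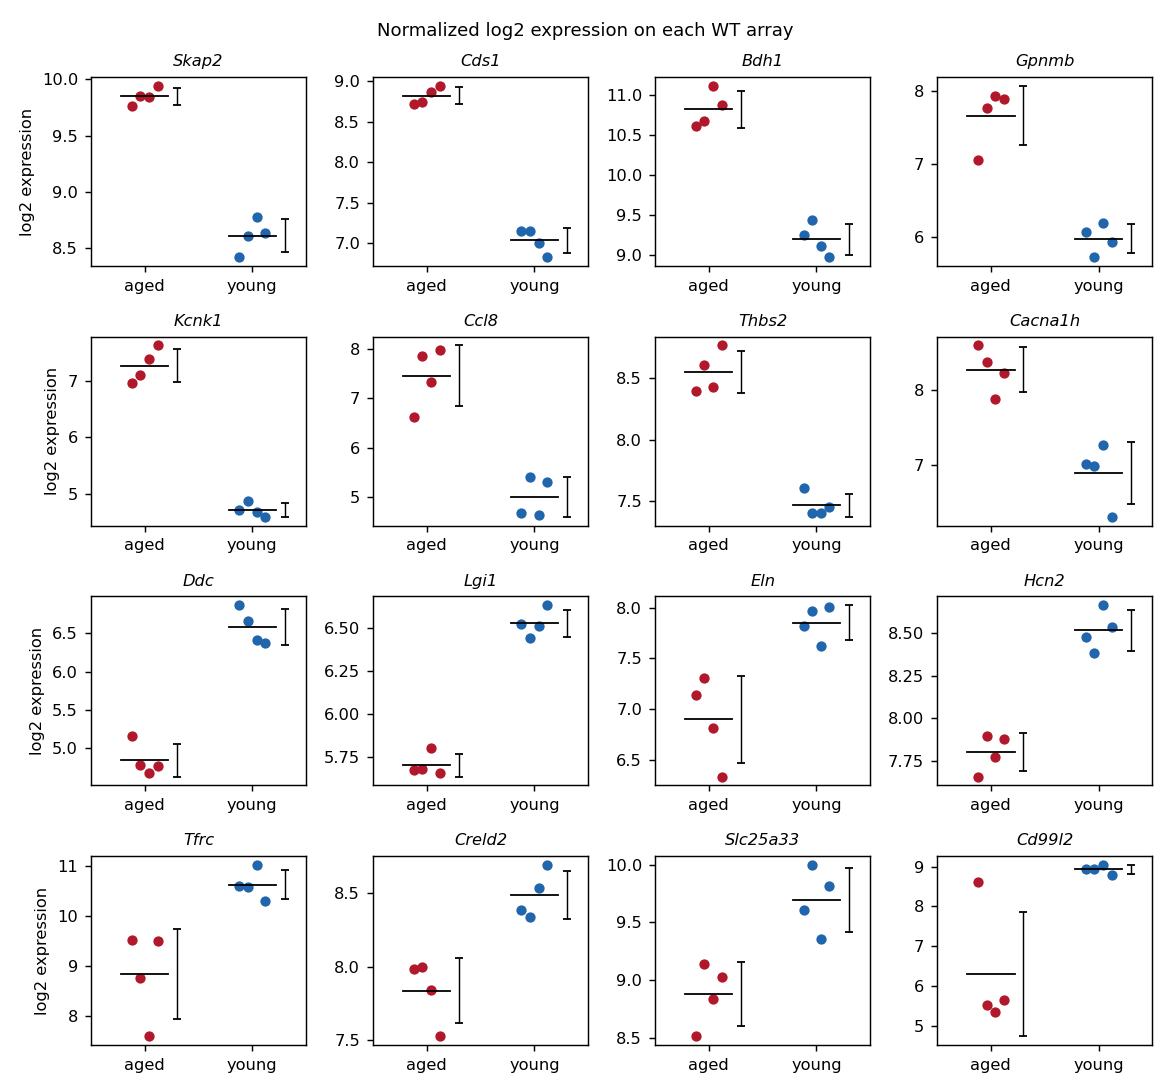
Normalized log2 expression of 16 genes on the 8 WT arrays, aged WT (red) left of young WT (blue), with 1 point for each mouse, a line at the group mean and a bar of 1 SD either way beside it. The groups do not overlap in any panel, and in Cd99l2 aged WT 1 (8.62) lies close to the young arrays. Where a gene has several probes, the one of smallest P is shown.

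Among the immune gene lists, that of the chemokines held the most calls. The lists were written with earlier results of these data known, so their counts are a description only. Of 41 measured chemokines, cytokines and receptors, 8 were called higher and 0 lower, against 1.92% and 1.18% of all genes represented by 1 probe each. The median difference of the list was 0.07, against 0.00058 over all genes. In the list 24 members were above and 17 below 0, against 50.2% and 49.8% of all genes. Ccl8, which attracts monocytes, read 6.63, 7.87, 7.34 and 7.99 in aged WT, against 4.66, 5.4, 4.63 and 5.29 in young WT, where no array detected it, and was at least 3.51-fold higher (adjusted p = 0.001, limma). Ccl11, the eosinophil chemokine eotaxin, read 7.50, 8.24, 7.45 and 8.47 in aged WT, against 6.58, 7.14, 7.02 and 6.76 in young WT, and was higher by 1.04 (SE 0.20). The groups did not overlap for either gene.

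Cxcl13, which attracts B cells, read 5.05, 6.32, 5.87 and 6.91 in aged WT, against 4.39, 4.54, 4.65 and 4.46 in young WT. It was at least 1.31-fold higher (adjusted p = 0.0336, limma) and was detected on 3 aged arrays and no young one. Cx3cl1, which tethers monocytes to endothelium, was higher by 0.68 (SE 0.15). Cxcl12 and Ccl19, which guide lymphocytes, were each higher by 0.66, Cxcl14 by 0.62 and Il6st, the shared receptor chain of the interleukin-6 family, by 0.39.

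For Ccl8, Ccl11 and Cxcl13 the highest values were those of aged WT 2 and 4, the arrays that were also highest in atrial markers. Without these arrays the differences were 1.99, 0.60 and 0.95 for the 3 chemokines, and all were called. Without the 3 arrays of the highest liver-type level, 4 of the 8 members stayed called, and Cxcl13 (just past the threshold) and Cx3cl1 (0.56) lost their calls.

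Other immune transcripts that rose were few and of several kinds. Gpnmb, a glycoprotein of lysosome-rich macrophages, read 7.06, 7.78, 7.94 and 7.89 in aged WT, against 6.07, 5.72, 6.19 and 5.93 in young WT, and was higher by 1.69 (SE 0.19, adjusted p = 0.000475 with limma). Tnfsf13b, the B cell survival factor BAFF, was higher by 0.83 (SE 0.09), with 0.90 on a further probe, and held like Gpnmb. Cd3g, a chain of the T cell receptor complex, was higher by 0.83 (SE 0.14) but was detected on only 1 aged and 0 young arrays. It was the only called member of 16 measured T and NK cell markers. C4b, a complement protein, was higher by 1.13 (SE 0.27, adjusted p = 0.0784 with limma), and lost its call without aged WT 2 and 4 (0.90) and without the 3 liver-high arrays (1.27).

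No general macrophage marker was called in the fit to all arrays. Among 21 measured macrophage and myeloid markers, 16 were below 0, against 49.8% of all genes, and the median was -0.21. The count called lower was 2 without young WT 1 and 1 without young WT 2, aged WT 2, young WT 4 or the 3 liver-high arrays. Their mean level was 7.62 to 7.67 on the aged WT arrays and 7.62 to 8.06 on the young WT arrays. Cx3cr1, the receptor of Cx3cl1, read 4.84, 5.43, 4.96 and 4.74 in aged WT, against 5.85, 5.32, 6.80 and 5.42 in young WT, and was not called. Of 50 measured interferon response genes, 0 were called higher and 1 lower, against 1.92% and 1.18% of all genes. In this list 36 were below 0, against 49.8% of all genes, and the median was -0.08. The count lower was 4 without the 3 liver-high arrays, where the median was -0.17, 2 with median scaling, 2 without aged WT 3, and 0 without aged WT 1, aged WT 2 or young WT 3. The 1 call was Oasl1, an antiviral protein, at -0.56 on a probe detected on no WT array, which gives no fold. None of the B cell, neutrophil or mast cell markers, nor any of the 12 measured genes of MHC class II, was called in that fit.

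Matrix genes changed in both directions. The matricellular proteins, which signal from the matrix to the cell without building it, held 2 called members of 12 measured, both higher, and these 2 were called under each setting tried. Thbs2, which restrains vessel growth and collagen assembly, read 8.395, 8.61, 8.43 and 8.77 in aged WT, against 7.605, 7.41, 7.41 and 7.46 in young WT, and was higher by 1.08 (SE 0.13, adjusted p = 0.000575 with limma). Ccn5 read 7.68, 8.11, 8.01 and 7.88 in aged WT, against 7.27, 7.27, 6.61 and 6.90 in young WT, and was higher by 0.90 (SE 0.14, adjusted p = 0.00483 with limma). Neither gene's groups overlapped.

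Of 24 measured genes of basement membrane, proteoglycans and elastic fibers, Eln and Mfap4 were called, both lower, and of 21 collagen processing genes Sparc was, also lower. Eln, the elastin gene, read 7.14, 7.31, 6.82 and 6.33 in aged WT, against 7.82, 7.97, 7.63 and 8.01 in young WT, fell by 0.95 (SE 0.18, adjusted p = 0.0213 with limma) and held. Mfap5, a glycoprotein of the microfibrils on which elastin is laid down, fell by 0.83 (SE 0.19), and was at -0.72 and not called without aged WT 2 and 4. Sparc, a collagen-binding protein that is also counted among matricellular proteins, fell by 0.71 (SE 0.19) on its brightest probe and by 1.03 on another. The brightest probe lost its call without aged WT 2 (-0.67), young WT 3 (-0.63) or aged WT 4 (-0.60). Mfap4 fell by 0.93 (SE 0.25), and lost its call without young WT 2 (-0.85), young WT 3 (-0.94), young WT 4 (-0.83) or aged WT 4 (-0.68).

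Of 19 measured fibrillar and network collagens, 18 were below 0, against 49.8% of all genes, and the median was -0.19. Only Col4a4 was called, at -0.46 on a probe detected on no aged and 1 young array, and the call was lost without young WT 1 (-0.48), aged WT 1 (-0.49), young WT 2 (-0.35), aged WT 2 (-0.46), young WT 4 (-0.46) or aged WT 4 (-0.40). The count of collagens called lower was 3 without aged WT 3, 2 without aged WT 2 and 0 without aged WT 1, young WT 2, young WT 4 or aged WT 4. The median of the list was -0.39 without the 3 liver-high arrays. Col1a1 averaged 7.14 ± 0.44 in aged and 7.95 ± 0.37 in young WT, and Col3a1 5.50 ± 0.58 in aged and 6.29 ± 0.28 in young WT (SD, n = 4 each). Neither was called, at limma's adjusted p of 0.252 and 0.214. The mean level of the list was 6.76 to 7.23 on the aged WT arrays and 7.27 to 7.51 on the young WT arrays, which do not overlap. The fibroblast markers had mean levels of 8.76 to 9.04 on the aged WT arrays and 8.72 to 8.96 on the young WT arrays. Of the 12 measured, Mfap5 was called lower (-0.83) and no other was called in the fit to all arrays.

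**Figure D4:**
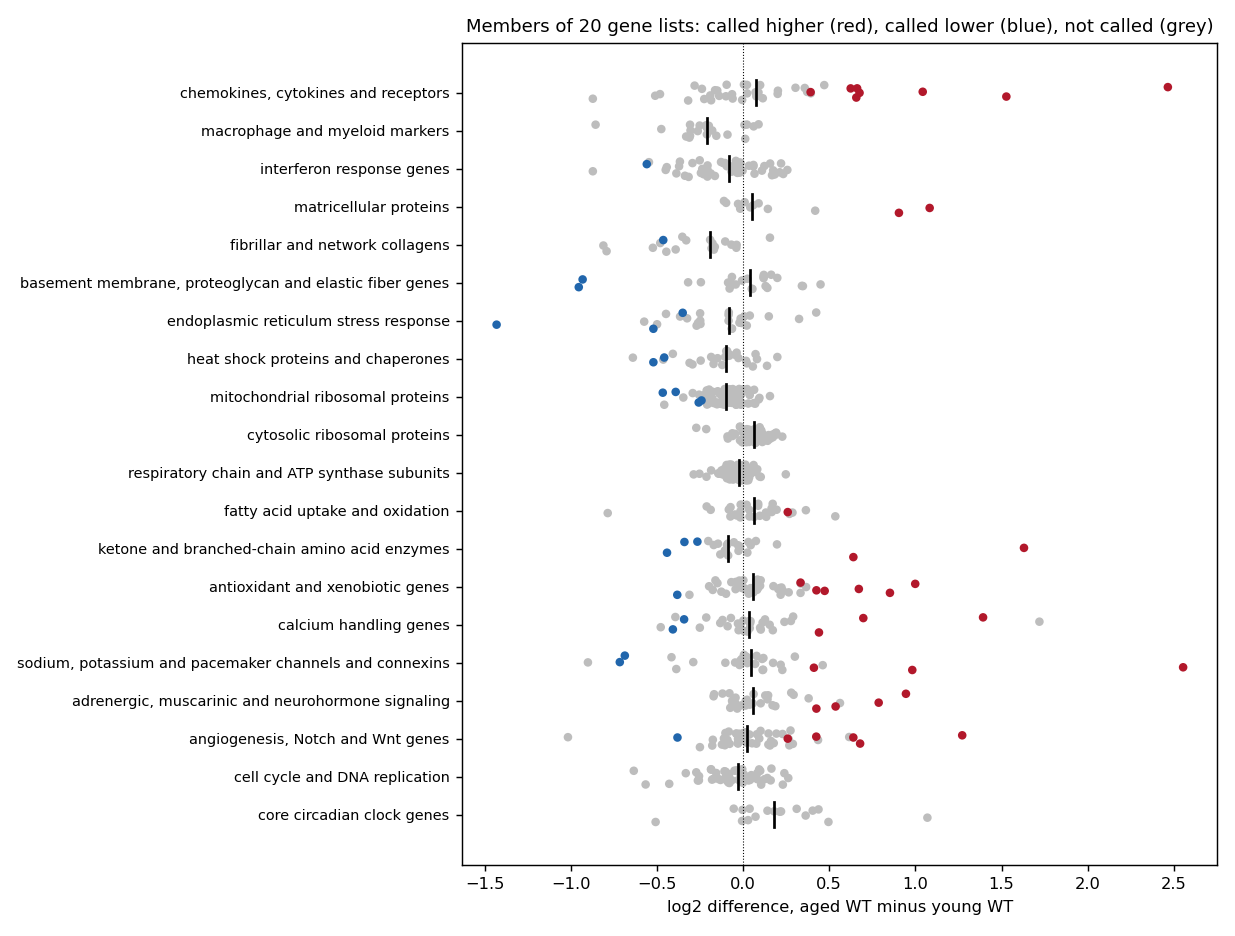
Aged minus young WT difference (log2) of every measured member of 20 gene lists, with 1 point for each gene, red where called higher, blue where called lower and grey where not called, and a black bar at the list median. Chemokines hold 8 members called higher, antioxidant genes 6, and collagens and mitochondrial ribosomal proteins lie mostly to the left of 0, with medians of -0.19 and -0.10.

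The endoplasmic reticulum (ER) is where secreted and membrane proteins are folded, and when unfolded protein builds up a set of chaperones is induced. Creld2, a chaperone-like protein induced by ER stress, read 7.98, 8.001, 7.84 and 7.53 in aged WT, against 8.38, 8.34, 8.54 and 8.69 in young WT, and fell by 0.65 (SE 0.11, adjusted p = 0.0123 with limma). Its brighter probe differed by -0.45 and was not called. Ostc, a subunit of the enzyme that attaches sugar chains to new proteins, read 10.48, 10.66, 10.45 and 10.46 in aged WT, against 10.99, 11.02, 10.91 and 10.96 in young WT, and fell by 0.46 (SE 0.07, adjusted p = 0.00498 with limma). Both genes held and neither group overlapped the other.

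Of 28 measured genes of the ER stress response, 0 were called higher and 3 lower, 22 were below 0, and the median was -0.08. Among all genes, 1.92% were called higher, 1.18% were called lower and 49.8% were below 0. Chac1, a glutathione-degrading enzyme induced by the stress response, read 6.84, 7.46, 7.60 and 7.13 in aged WT, against 7.71, 9.36, 8.31 and 9.36 in young WT, and fell by 1.43 (SE 0.41). Dnajb9, a co-chaperone, fell by 0.52 (SE 0.14) and Pdia3, a disulfide isomerase, by 0.35 (SE 0.10). The young values of Chac1 spread over more than 1 log2 unit, and those of Dnajb9 held 1 high array, young WT 4 at 10.52.

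Each of these 3 calls was lost with several of the single arrays left out. The list held 0 called genes without aged WT 1, 1 without aged WT 3, young WT 4 or aged WT 4, and 7 without young WT 1, and 5 with median scaling. Dnajb9 was at -0.38 without young WT 4 and Chac1 at -1.20 without young WT 2, neither called. Calr averaged 8.27 ± 0.13 in aged and 8.84 ± 0.32 in young WT and Pdia4 8.02 ± 0.18 in aged and 8.52 ± 0.33 in young WT (SD, n = 4 each), and neither was called.

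Promoters are shown for the 4 called genes of this group that the RefSeq promoter table (build GRCm38.p6) holds, since the response is known to act through the ER stress element, a CCAAT box and the letters CCACG with 9 bases between them. Each runs 5′ to 3′ on the gene's strand from 250 bases before to 50 after the start. Capitals mark CCAAT boxes on either strand (ATTGG where reversed) and, in Creld2, the reversed CCACG end of the element.
Creld2 (chr15:88819396-88819695, + strand): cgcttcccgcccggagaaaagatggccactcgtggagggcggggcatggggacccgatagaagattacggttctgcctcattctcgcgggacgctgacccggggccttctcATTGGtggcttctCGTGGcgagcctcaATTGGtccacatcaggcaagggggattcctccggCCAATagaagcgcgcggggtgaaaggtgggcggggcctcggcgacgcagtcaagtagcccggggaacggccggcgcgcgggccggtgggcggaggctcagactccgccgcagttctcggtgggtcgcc
Pdia3 (chr2:121413652-121413951, + strand): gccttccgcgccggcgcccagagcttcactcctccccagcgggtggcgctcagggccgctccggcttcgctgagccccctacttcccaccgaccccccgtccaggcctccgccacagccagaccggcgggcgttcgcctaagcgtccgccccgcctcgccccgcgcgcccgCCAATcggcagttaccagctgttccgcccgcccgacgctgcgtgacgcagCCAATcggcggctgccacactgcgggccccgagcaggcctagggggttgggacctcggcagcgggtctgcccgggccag
Dnajb9 (chr12:44210019-44210318, - strand): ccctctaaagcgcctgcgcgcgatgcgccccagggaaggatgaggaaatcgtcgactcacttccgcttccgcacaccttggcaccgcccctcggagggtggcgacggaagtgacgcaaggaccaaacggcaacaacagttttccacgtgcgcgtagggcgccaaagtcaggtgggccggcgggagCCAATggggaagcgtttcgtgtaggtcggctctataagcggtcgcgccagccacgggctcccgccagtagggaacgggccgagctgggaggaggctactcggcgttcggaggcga
Chac1 (chr2:119350992-119351291, + strand): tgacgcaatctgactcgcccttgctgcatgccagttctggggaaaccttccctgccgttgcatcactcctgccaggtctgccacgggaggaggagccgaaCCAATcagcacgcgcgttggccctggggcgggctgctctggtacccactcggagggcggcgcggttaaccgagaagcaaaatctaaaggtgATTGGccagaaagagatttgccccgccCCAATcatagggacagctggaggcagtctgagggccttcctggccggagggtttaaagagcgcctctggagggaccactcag
Creld2 has 3 CCAAT boxes and 1 full element on the reverse strand, Chac1 has 3 boxes, Pdia3 2 and Dnajb9 1, and the full element is not in these windows of the last 3. The ER stress element was searched after the data were seen. Of 16534 promoters of the array's genes, 37.8% hold CCAAT and 0.109% the full element. Of the 26 promoters of the ER stress list, 76.9% hold CCAAT and 34.6% the element. Among called genes, CCAAT is in 35.9% of promoters of those that rose and 41.4% of those that fell, and the element in 0 and 2 promoters. A match describes the letters only. Promoters were found for 13335 of the 16593 genes.

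Ion channels and calcium genes changed in both directions. Of 33 measured calcium handling genes, 3 were called higher and 2 lower, against 1.92% and 1.18% of all genes. Cacna1h, a T-type calcium channel of pacemaker and immature heart cells, read 8.61, 8.38, 7.89 and 8.23 in aged WT, against 7.003, 6.99, 7.26 and 6.29 in young WT, and was higher by 1.39 (SE 0.19, adjusted p = 0.00182 with limma). Camk2b, a calmodulin-dependent kinase subunit, was higher by 0.70 (SE 0.12) and Slc8a1, the sodium-calcium exchanger that clears calcium from the cardiomyocyte, by 0.44 (SE 0.08). All 3 held, and only Slc8a1 lost its call with median scaling (0.37).

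Asph, which shares a locus with the junctional protein junctin, fell by 0.41 and Camk2d, the main cardiac subunit of the kinase, by 0.34, with limma's adjusted p at 0.126 for both. Asph has 13 further probes and none was called. Those detected on all 8 arrays read 0.17, -0.05, -0.10 and -0.07, and averaging the probes of Asph gave -0.07 and ended the call. Further probes of Camk2d read -0.30, -0.26 and 0.46 and were not called. The list held 0 genes called lower without aged WT 3, aged WT 4 or young WT 4 and 1 without aged WT 2. Atp2a2, the calcium pump of the sarcoplasmic reticulum, averaged 15.07 ± 0.05 in aged and 15.09 ± 0.06 in young WT (SD, n = 4 each). Its inhibitor Pln (12.67 ± 0.16 in aged, 12.76 ± 0.11 in young WT) and the release channel Ryr2 (6.63 ± 0.27 in aged, 6.59 ± 0.32 in young WT) were not called either.

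Of 28 measured sodium, potassium and pacemaker channels and connexins, 3 were called higher and 2 lower, against 1.92% and 1.18% of all genes. Besides Kcnk1, Hcn2, a pacemaker channel, read 7.66, 7.90, 7.77 and 7.88 in aged WT, against 8.48, 8.39, 8.67 and 8.54 in young WT, and fell by 0.72 (SE 0.14, adjusted p = 0.0257 with limma). Kcnj12, an inward rectifier that steadies the resting potential, read 6.73, 6.37, 6.52 and 6.66 in aged WT, against 7.09, 7.31, 7.25 and 7.39 in young WT, and fell by 0.69 (SE 0.13, adjusted p = 0.0267 with limma). Both held, and their groups did not overlap.

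Scn4b, a subunit of the cardiac sodium channel, was higher by 0.98 (SE 0.27), and lost its call without young WT 1 (0.92), aged WT 1 (1.00), young WT 2 (0.92), aged WT 2 (0.97) or aged WT 3 (0.86). Kcnh2, a delayed rectifier, was higher by 0.41. The list held 1 gene called higher without young WT 1, aged WT 1 or young WT 2. Kcnip2, a subunit of the transient outward potassium channel, read 8.38, 7.95, 7.78 and 8.22 in aged WT, against 8.24, 8.72, 8.25 and 8.67 in young WT on its brightest probe, which was not called (-0.39). Its other probes were at -0.45, not called, and -0.78, which was called (adjusted p = 0.0595, limma).

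Of 31 measured genes of adrenergic, muscarinic and neurohormone signaling, 4 were called, all higher, against 1.92% of all genes. Npr3, the receptor that clears natriuretic peptides, read 7.41, 7.53, 8.04 and 7.79 in aged WT, against 6.91, 6.78, 6.41 and 6.89 in young WT, and was higher by 0.95 (SE 0.15, adjusted p = 0.00554 with limma). Grk5, the kinase that desensitizes beta-adrenergic receptors, read 8.07, 8.08, 8.12 and 7.65 in aged WT, against 7.14, 7.50, 6.81 and 7.32 in young WT, and was higher by 0.79 (SE 0.16). Both held with no overlap of the groups.

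Agtr1a, an angiotensin receptor, was higher by 0.54 (SE 0.15), and lost its call without aged WT 1 (0.56), young WT 2 (0.53), aged WT 2 (0.49), young WT 4 (0.41) or aged WT 4 (0.47). Pde8a, a cyclic AMP phosphodiesterase, was higher by 0.43, and lost its call with 5 of the single arrays left out, so that 2 of the 4 genes were left without young WT 2, aged WT 2, young WT 4 or aged WT 4. The natriuretic peptides themselves were not called. Nppa read 12.16, 11.89, 12.62 and 12.80 in aged WT, against 13.62, 13.42, 12.62 and 13.39 in young WT. Nppb read 13.53, 13.60, 13.99 and 13.71 in aged WT, against 13.44, 13.18, 13.40 and 13.60 in young WT. Their differences were -0.89 and 0.30, and the groups overlapped for both.

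The fetal and stress program of the ventricle held 1 called gene among 19 measured. Fhl1, which binds titin and senses stretch, was higher by 0.41 (SE 0.08, adjusted p = 0.0267 with limma), with 0.49 on a further probe, and held. Without the 3 liver-high arrays it was at 0.37 and not called. Myh7, the slow myosin heavy chain of the fetal mouse ventricle, was chosen after its values were seen. It averaged 7.52 ± 0.31 in aged and 6.13 ± 0.30 in young WT (SD, n = 4 each) with no overlap, a difference of 1.39 that the fit over all 16 arrays did not call (SE 0.54, adjusted p = 0.329 with limma).

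Among the sarcomere genes, 2 of 36 were called, both higher, against 1.92% of all genes. Tpm2, a tropomyosin, was higher by 0.49 (SE 0.09), while 2 dim probes of the gene read 0.09 and -0.06, and without the 3 liver-high arrays it was at 0.44 and not called. Pdlim3, a Z disc protein, was higher by 0.79 and by 0.73 on a further probe, and its brightest probe lost the call without young WT 3 (0.70). None of the 11 ventricular cardiomyocyte markers was called, and their median difference was 0.01.

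Bdh1, which interconverts beta-hydroxybutyrate and acetoacetate in mitochondria, read 10.61, 10.68, 11.12 and 10.88 in aged WT, against 9.25, 9.43, 9.11 and 8.97 in young WT. It was higher by 1.63 (SE 0.18), or 3.10-fold, with limma's adjusted p at 0.000475, and held. Every aged array lay more than 1 log2 unit above every young one.

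Of 23 measured ketone and branched-chain amino acid enzymes, 2 were called higher and 3 lower, against 1.92% and 1.18% of all genes. Acat1, which splits acetoacetyl-CoA, was higher by 0.64 (SE 0.19), but kept its call only when aged WT 3 was the array left out, at 0.50 to 0.68 without the others. Oxct1, which activates ketone bodies, fell by 0.27 and Gpt2, the mitochondrial alanine aminotransferase, by 0.34 (SE 0.10), with limma's adjusted p at 0.16 and 0.168. Dbt, a subunit of the branched-chain keto acid dehydrogenase, read 8.88, 8.96, 9.09 and 9.14 in aged WT, against 9.41, 9.34, 9.68 and 9.41 in young WT, and fell by 0.44 (SE 0.09, adjusted p = 0.0404 with limma). Dbt held, whereas the list had 1 gene called lower without young WT 2, aged WT 2, aged WT 3 or young WT 4.

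Fatty acid and respiratory genes gave few calls. Of 29 measured genes of fatty acid uptake and oxidation, only Cpt1b, the muscle carnitine palmitoyltransferase, was called, at 0.26 (SE 0.07) on its brightest probe and 0.31 on another, and the call of the brightest probe was lost without young WT 3 (0.22), aged WT 3 (0.23) or aged WT 4 (0.23). Acot1, which releases fatty acids from coenzyme A, read 11.23, 12.02, 12.71 and 11.56 in aged WT, against 11.08, 11.52, 11.41 and 11.37 in young WT, and was not called. None of 74 measured subunits of the respiratory chain and ATP synthase was called, with a median of -0.02. Lpin1, a phosphatidate phosphatase that also co-activates fatty acid genes, fell by 0.62 (SE 0.14) and held, although averaging it with the gene's undetected probes ended the call (-0.23). Acaca, which makes malonyl-CoA, was higher by 0.63 (SE 0.16) and held, but was not called with median scaling (0.62), without aged WT 2 and 4 (0.53) or without the 3 liver-high arrays (0.63).

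Most mitochondrial ribosomal proteins lay below 0. Of 74 measured, 64 were below 0, against 49.8% of all genes, with a median of -0.10. The list held 4 called genes, all lower, against 1.18% of all genes. Mrpl35 read 7.44, 7.38, 7.38 and 7.57 in aged WT, against 8.06, 7.94, 7.80 and 7.85 in young WT, and fell by 0.47 (SE 0.10, adjusted p = 0.0479 with limma). Mrps25 fell by 0.39, Mrpl1 by 0.26 and Mrpl9 by 0.24. The count was 2 without aged WT 2, 2 with median scaling, 1 without the 3 liver-high arrays and 0 with the skeletal muscle level in the fit. The cytosolic ribosomal proteins, 57 measured, held no call, and 44 were above 0 against 50.2% of all genes, with a median of 0.06.

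Antioxidant and xenobiotic genes held 6 members called higher and 1 lower of 47 measured, against 1.92% and 1.18% of all genes. Ephx1, the microsomal epoxide hydrolase, read 10.13, 10.43, 10.63 and 10.24 in aged WT, against 9.70, 9.61, 9.39 and 9.31 in young WT, and was higher by 0.85 (SE 0.11, adjusted p = 0.000921 with limma). Nqo1, a quinone reductase, read 10.16, 10.18, 10.07 and 10.01 in aged WT, against 9.20, 9.49, 9.52 and 9.51 in young WT, and was higher by 0.67 (SE 0.11, adjusted p = 0.00837 with limma). Both held with no overlap of the groups.

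Gsta1, a glutathione S-transferase with close copies, was higher by 1.00 (SE 0.24) and held, although young WT 1 (7.65) lay just above aged WT 4 (7.64). Gpx3 was higher by 0.43 and Gstm2 by 0.33. Gstt1 was higher by 0.47, and lost its call without aged WT 2 (0.45) or aged WT 3 (0.45). Gpx7, an ER peroxidase, fell by 0.38. The number called higher was 3 without aged WT 2, without aged WT 3, without aged WT 2 and 4 together, or with median scaling.

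Vegfd, a growth factor of lymphatic vessels, read 6.56, 6.78, 6.64 and 6.65 in aged WT, against 5.63, 5.69, 5.66 and 5.51 in young WT, and was higher by 1.04 (SE 0.12, adjusted p = 0.000475 with limma). Reln, a marker of lymphatic endothelium among the 6 measured, read 7.89, 8.01, 7.83 and 7.99 in aged WT, against 7.54, 7.32, 6.99 and 7.03 in young WT, and was higher by 0.71 (SE 0.14, adjusted p = 0.0244 with limma). Both held with no overlap. The lymphatic list as a whole had a mean level of 8.14 to 8.22 on the aged WT arrays and 7.94 to 8.06 on the young WT arrays.

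Of 14 smooth muscle and pericyte markers, 2 were called higher, against 1.92% of all genes. Myh11, the smooth muscle myosin, was higher by 0.82 (SE 0.19) and Notch3, a receptor of mural cells, by 0.68 (SE 0.15). Both held with single arrays left out, and neither was called with median scaling (0.81 and 0.67) or without the 3 liver-high arrays (0.84 and 0.61). Endoglin (Eng), a co-receptor of endothelial cells, was higher by 0.49 and held, but was not called with median scaling (0.45) or without the 3 liver-high arrays (0.40). The water channel Aqp1 fell by 0.56 (SE 0.14) on its brightest probe, which lost its call without young WT 3 (-0.52) or young WT 4 (-0.52). Its further probes read -0.62 and -0.66 and were called. None of the other 12 endothelial markers was called.

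Of 49 measured angiogenesis, Notch and Wnt genes, 5 were called higher and 1 lower, against 1.92% and 1.18% of all genes. Among them were Dkk3, a secreted Wnt pathway protein, at 1.27 and Notch1 at 0.64. Dkk3 lost its call without young WT 1, aged WT 2 or aged WT 4, and was at 0.60 and not called without aged WT 2 and 4. Its further probes read 0.99, which was called, and 0.08, which was not. Notch1 lost its call without aged WT 1 (0.58), young WT 2 (0.56), aged WT 2 (0.57), young WT 3 (0.66) or young WT 4 (0.62). The list held 2 genes called higher without aged WT 1, aged WT 2, young WT 3 or young WT 4, 3 without young WT 1 or aged WT 4, and 0 without the 3 liver-high arrays. Among nerve and Schwann cell genes, Mbp, a myelin protein, read 5.92, 6.42, 5.81 and 6.25 in aged WT, against 5.64, 5.38, 4.84 and 4.86 in young WT, and was higher by 0.92 (SE 0.17, adjusted p = 0.022 with limma) and held, while 2 dim probes of Mbp read 0.26 and 0.38 and were not called. Stmn2, a neuronal microtubule protein, was higher by 0.64, and its call was lost with any array but aged WT 4 left out (0.56 to 0.67).

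A few further genes came from other lists. Lgals4, a sugar-binding galectin, read 10.91, 11.32, 11.37 and 11.33 in aged WT, against 10.24, 10.25, 10.60 and 10.09 in young WT, and was higher by 0.94 (SE 0.12, adjusted p = 0.000931 with limma). It was the 1 called member of 13 measured clock output genes, and none of 17 core circadian clock genes was called. Cdkn2b, a cell cycle inhibitor known from senescent cells, was higher by 0.60 (SE 0.13) and was detected on 2 aged and 0 young arrays. It held with single arrays left out and was at 0.51 and not called without the 3 liver-high arrays. Sesn1, a stress-induced inhibitor of growth signaling, fell by 0.41, with 0.95 on a further probe, and its brightest probe lost the call without young WT 2 (-0.38), aged WT 2 (-0.38) or young WT 4 (-0.36). Those were the only calls among 21 measured senescence genes in the fit to all arrays.

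Vps33b, which serves fusion of endosomes with lysosomes, averaged 5.73 ± 0.07 in aged and 6.26 ± 0.22 in young WT (SD, n = 4 each), fell by 0.54 (SE 0.09, adjusted p = 0.00936 with limma) and held, while a further probe read -0.15 and was not called. Impact, an imprinted regulator of the translational stress response, averaged 10.12 ± 0.12 in aged and 9.63 ± 0.25 in young WT (SD, n = 4 each), was higher by 0.50 (SE 0.11) and held. It was not called with median scaling, without aged WT 2 and 4 or without the 3 liver-high arrays.

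The calls of the next 7 genes were each lost with 5 or 6 of the 8 single arrays left out. Adam9, a membrane protease, was higher by 0.49 as the only call among 21 matrix proteases and inhibitors, and Mgll, which splits monoglycerides, by 0.35. Axin2, a target gene of Wnt signaling, was higher by 0.42. Fstl1, a secreted follistatin-like glycoprotein, fell by 0.45 as the only call among 33 genes of TGF-beta, BMP and activin signaling. Chordc1, a co-chaperone of Hsp90, fell by 0.46 and Lgmn, a lysosomal protease, by 0.30. H2-T10, an MHC class I gene with close copies, was called higher on a probe detected on no WT array.

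Of the 7 set genes, Htt, Tbp, B2m and Hspa1a were not called. Htt, the gene of huntingtin, averaged 5.85 ± 0.19 in aged and 5.63 ± 0.16 in young WT, Tbp 6.89 ± 0.15 in aged and 7.01 ± 0.13 in young WT, and B2m 13.29 ± 0.24 in aged and 13.31 ± 0.17 in young WT (SD, n = 4 each). The heat shock gene Hspa1a averaged 5.80 ± 0.21 in aged and 6.26 ± 1.42 in young WT (SD, n = 4 each), with young WT 1 at 8.28.

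The BACHD arrays gave a further set of mice in which to follow the same probes with age. They share no array with the WT comparison, and the limma fit pools the spread over both. The WT mice were littermates of BACHD mice, and whether mice of the same age shared litters or processing was not tested. A difference of that kind between the ages could give the same sign in both genotypes. Equal signs are therefore not an independent replication. In BACHD hearts 1324 probes were called between the ages (5.15%). Of the 711 probes called in WT, 640 (90.0%) had the same sign in BACHD, against 58.8% of all probes. Both genotypes called 306 probes in the same direction, 43.0% of the WT calls and 23.1% of the BACHD calls, and 2 in opposite directions. The median difference of the probes that rose in WT was 0.50 in WT and 0.32 in BACHD, and of those that fell -0.44 in WT and -0.28 in BACHD. Because the probes were chosen by their WT values, the smaller BACHD medians are a description only.

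For 8 genes called in WT and shown here as examples, the direction was the same in BACHD. The differences were 1.73 for Cds1, 1.10 for Skap2, 1.80 for Kcnk1, 2.20 for Ccl8, 1.84 for Gpnmb, -1.42 for Ddc, -0.95 for Eln and 0.95 for Npr3 in BACHD. In WT they were 1.78 for Cds1, 1.24 for Skap2, 2.55 for Kcnk1, 2.47 for Ccl8, 1.69 for Gpnmb, -1.74 for Ddc, -0.95 for Eln and 0.95 for Npr3. The fitted values of Kcnk1, Ccl8 and Ddc rest on arrays below detection on 1 side. None of these 8 genes had a difference between the genotypes that passed P below 0.005. Other genes called in WT did, among them Nmral1, of opposite sign in BACHD, and Dpp7 and Ccn5, all given below.

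Tested directly, the age effect differed between WT and BACHD at P below 0.005 with limma in 157 probes (0.611%). About 128 would pass that threshold by chance if no probe differed. At an adjusted p below 0.05 there were 0, with 1590 at an unadjusted p below 0.05 and a smallest adjusted p of 0.0576. Of the 711 probes called in WT, 41 were among the 157. Rragd, a GTPase that couples lysosomal amino acids to mTORC1, had that smallest value. It read 8.20, 8.25, 8.33 and 8.54 in aged WT, against 8.87, 8.70, 8.58 and 8.59 in young WT, a fall of 0.35 (SE 0.09), while its BACHD difference was 0.58. In WT alone it lost its call without young WT 1 (-0.29), aged WT 1 (-0.31) or aged WT 2 (-0.33).

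Dpp7, a lysosomal dipeptidase, read 7.80, 7.85, 7.60 and 7.63 in aged WT, against 7.15, 6.94, 7.09 and 7.15 in young WT, higher by 0.64 (SE 0.08) in WT and 0.09 in BACHD. Nmral1, a sensor of the NADPH level, read 6.11, 6.27, 6.33 and 6.17 in aged WT, against 6.94, 7.06, 6.95 and 7.17 in young WT, with a difference of -0.81 (SE 0.14) in WT and 0.20 in BACHD. For both genes the WT groups did not overlap, and both held. Ccn5 was at 0.90 in WT and 0.23 in BACHD, and Eng at 0.49 in WT and -0.11 in BACHD.

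**Figure D5:**
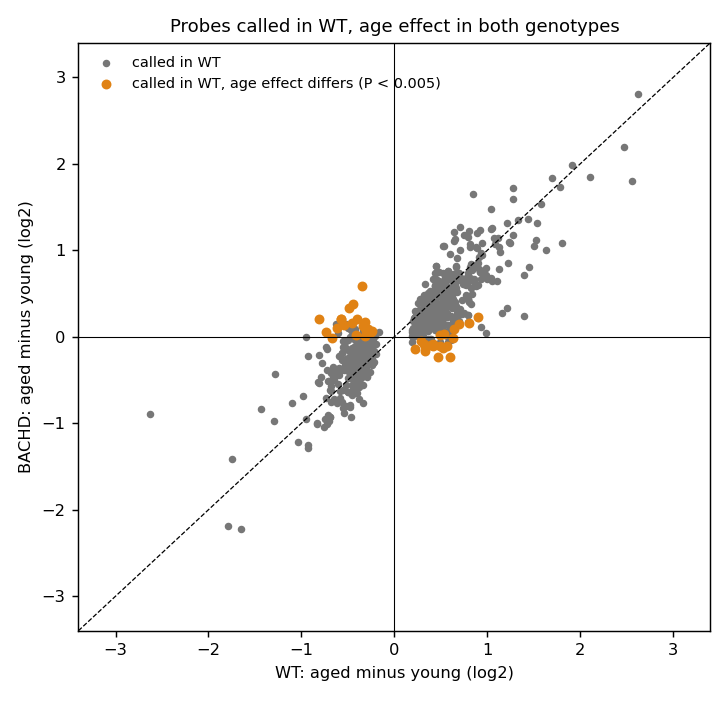
The 711 probes called in WT, with the aged minus young difference (log2) in WT on the horizontal axis and in BACHD on the vertical axis. The dashed line marks equal differences, and orange marks the 41 probes whose age effect differed between the genotypes at P below 0.005. Of all points, 640 lie in the quadrants of equal sign.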

How the data were processed

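RNA from the ventricles of 16 mice was hybridized to Illumina MouseRef-8 BeadChips, 1 array a mouse. The deposited table holds intensities summarized per probe, without normalization, and a detection p-value for each, which the authors compiled with BeadStudio from iScan scans. A second deposited table holds the authors' processed log2 values. No source used here describes their normalization. They differed from the quantile normalized log2 intensities, without background correction, by at most 5.0e-09. Groups came from the sample labels and ages from the methods.

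The intensities were background corrected by normexp with an offset of 16, quantile normalized and log2 transformed (neqc, limma 3.58.1 in R 4.3.3). One linear model with 4 groups was fitted over 16 arrays, with empirical Bayes variances, for the age effect in WT, in BACHD and their difference. P below 0.005 made a call, and Benjamini-Hochberg adjustment ran over all 25697 probes. A probe was detected at a detection p-value below 0.01. A gene stands for its brightest probe in lists. Nothing in the labels ties a replicate to a litter or a day, so p-values measure the spread between these mice.

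The genes named were chosen by rule as the 15 genes higher and 15 lower of smallest P that were detected on at least 4 of the 8 arrays, up to 4 called members of each of 55 gene lists, the genes whose age effect differed most between genotypes, 7 set genes (the transgene's gene Htt and those of a PCR experiment), and the 4 largest differences each way. The rule also took 2 genes of smallest P from each list without a call, most of which are given by their list's counts alone. Members and lists were chosen with earlier results of these data known. Myh7, the ER stress element and 5 alternatives (leaving out the arrays of high liver-type or atrial level, and the liver-type, atrial or skeletal muscle level as a covariate) were chosen after the data were seen. Of the named probes, 23962 matched a RefSeq gene.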

Additional observations from a re-analysis of the deposited data

Results flagged for a closer look

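Of 198 sets of 4 WT arrays examined for the named probes, 16 had 1 array far from the other 3. Chance gives about 1 in 20. Among aged WT arrays, array 1 stood apart in C4b (8.184, low), Cd99l2 (8.622, high) and Lgals4 (10.91, low), array 2 in Hspa1a (6.109) and Ostc (10.66, high), array 3 in Fstl4 (6.489) and Lgi1 (5.8, high), and array 4 in Grk5 (7.654, low). Among young WT arrays, array 1 stood apart in Gsta1 (7.648) and Nqo1 (9.202, low), array 3 in Ciao3 (5.671), Cx3cl1 (7.547), Tfrc (11.26, high) and Zfp933 (6.291), and array 4 in Dnajb9 (10.52, high) and Slc17a5 (6.061).

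Of 99 named probes examined, the age effect in WT differed from that in BACHD for 12 at P below 0.005 in limma, none at an adjusted p below 0.05. All but Ccn5 and Eng were among the genes named because their age effects differed most between genotypes. Their passing was therefore set by the choice, and the count is a description only. Over all probes the share was 0.611%. The WT minus BACHD difference of the age effects (log2) was 0.6789 for Ccn5, 0.9295 for Ciao3, 0.5519 for Dpp7, 0.598 for Eng, 0.9041 for Hr, 0.993 for Irf5 and 0.6258 for Stk38l. It was -0.4721 for Eif1a, -1.014 for Nmral1, -0.9343 for Rragd, -0.8282 for Slc17a5 and -1.234 for Zfp933. The age differences were 0.35 in WT and -0.58 in BACHD for Ciao3, 0.25 in WT and -0.74 in BACHD for Irf5, and -0.41 in WT and 0.82 in BACHD for Zfp933.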

How the results depend on the processing

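The 101 named called probes kept their direction under each alternative run. Of these, 69 stayed called with each WT array left out and 57 under each alternative other than the 5 chosen after seeing the data, 78 with median scaling, 61 without the 3 arrays of highest liver-type level and 68 without the 2 of highest atrial level. The 711 calls became 375 without the 3 liver-high arrays and 402 with the skeletal muscle level as a covariate. With the liver-type level as a covariate, 711 probes were called, 637 of them also called without it. In that fit 93 of the 101 named probes stayed called, and 188 probes passed an adjusted p below 0.05 in limma. The 183 probes at an adjusted p below 0.05 in limma became 283 without background correction and with the authors' processed values, 98 with median scaling, 96 with the WT arrays alone, 26 without the liver-high arrays, 68 without the atrial-high arrays, 94 with the atrial level and 62 with the skeletal muscle level as a covariate, and 83 to 163 with 1 array left out. The 157 probes whose age effect differed between genotypes became 95 with median scaling, 87 among probes detected on at least 4 of 16 arrays and 121 to 331 with 1 array left out (331 without BACHD aged 3). The causes were not tested. Deviations of aged and young WT arrays of the same replicate number correlated at -0.463 to 0.0761, against -0.283 to 0.529 for other numbers. This check left out the BACHD arrays and cannot exclude a pairing or a shared chip. With the replicate block, 774 probes were called, 183 at an adjusted p below 0.05, and the age effect differed between genotypes in 196 probes. Slide as a block was not run because no slide is named in the files used here. Probes near background give only bounds.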
